A study of Mus musculus with 12 samples.

Results

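The 9 genes described here encode the enzymes of the pentose phosphate pathway, namely G6pdx, H6pd, Pgls, Pgd, Rpia, Rpe, Tkt and Taldo1, together with Idh1, a cytosolic NADPH-producing enzyme outside the pathway. They were chosen by gene name for these roles, at a time when earlier results of these data were known, and all 9 were among the 55385 features of the deposited liver table. All 9 also passed the filter on low values, a mean of at least 1 TPM (transcript abundance scaled to gene length and to a fixed library total) over the 12 samples, which left 16378 features to be tested.

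The samples were livers of 12 male C57BL/6 mice, injected at 7 weeks of age with adenoviruses, at a total of 500000000 plaque-forming units stated for each group, and sacrificed on day 7. Ad-Ctrl mice received the viruses Lac and pAdV5, Ad-shmGULL mice received an shRNA against the mouse lncRNA mGULL with pAdV5, and Ad-shmGULL+hGULL mice received the same shRNA with the human lncRNA hGULL, with 4 mice in each group. All groups therefore carried adenovirus, and no uninjected mice were included. The comparisons ask whether knockdown of mGULL changed these transcripts and whether concurrent expression of hGULL returned them to the control level. The level of the targeted transcript itself was not analysed here, so in this report the groups rest on the labels. The study reports a qPCR check of mGULL knockdown and hGULL overexpression in wild-type mice infected with adenovirus.

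The pentose phosphate pathway branches off glycolysis at glucose 6-phosphate. Its oxidative branch yields NADPH, the reductant for fatty acid and cholesterol synthesis and for glutathione recycling, and its non-oxidative branch exchanges sugar phosphates between ribose 5-phosphate, which is needed for nucleotides, and the intermediates of glycolysis. In liver, the cytosolic oxidative enzymes are known for following carbohydrate feeding and lipogenesis, while malic enzyme (Me1) and cytosolic isocitrate dehydrogenase (Idh1) supply NADPH from other substrates.

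The hepatocyte marker genes summed to between 78490 and 123933 TPM per sample, and no marker gene of any list was at 0 in a whole group. By the threshold given below, 2 of 7 tested hepatocyte and 1 of 8 Kupffer cell markers fell in knockdown livers against control, while 1 of 6 endothelial, 1 of 3 cholangiocyte and 1 of 5 proliferation markers rose. In rescue livers, 4 of 5 proliferation markers rose and 1 hepatocyte and 1 Kupffer cell marker fell against control, and 2 of 5 neutrophil and monocyte markers fell against knockdown. The erythroid, T and NK cell, B cell and stellate cell lists had 0 markers past it in any comparison. The number of features above 1 TPM ranged from 15525 to 16929 per sample, and the 20 most abundant features held 24.6% to 34.2% of the TPM. Ad-shmGULL replicate 2 had the most features above 1 TPM. In a bulk sample, fewer cells of a type and less RNA per cell cannot be told apart, and the part of the markers and of library composition in the results below was not tested.

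Promoter sequence is shown for the 3 members past the threshold after knockdown (Tkt, Pgd and Rpia) and for G6pdx, which heads the pathway, so that genes that rose can be read beside a gene for which no change was detected. Each line gives the 250 bases before the start of the gene in RefSeq (GRCm38.p6, the build of the deposited values), read 5′ to 3′ on the strand of the gene. Tkt lies on the plus strand of chromosome 14 and its window is chr14:30548881-30549130, Pgd on the minus strand at chr4:149166706-149166955, Rpia on the minus strand at chr6:70792176-70792425, and G6pdx on the minus strand at chrX:74428881-74429130. Capitals mark matches, on either strand, to GGGCGG (the GC box bound by Sp1), CCAAT (the box bound by NF-Y) or, in G6pdx, TGACNNNGC (the antioxidant response element bound by NRF2).
Tkt: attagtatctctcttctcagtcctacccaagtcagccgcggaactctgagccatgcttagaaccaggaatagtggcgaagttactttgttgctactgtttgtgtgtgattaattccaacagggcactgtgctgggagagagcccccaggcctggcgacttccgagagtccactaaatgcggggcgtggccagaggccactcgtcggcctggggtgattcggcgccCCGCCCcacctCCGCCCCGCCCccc
Pgd: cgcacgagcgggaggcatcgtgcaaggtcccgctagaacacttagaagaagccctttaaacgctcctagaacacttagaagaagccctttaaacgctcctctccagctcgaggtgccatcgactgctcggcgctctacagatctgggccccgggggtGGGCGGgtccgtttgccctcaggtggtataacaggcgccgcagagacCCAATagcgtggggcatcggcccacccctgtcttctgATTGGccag
Rpia: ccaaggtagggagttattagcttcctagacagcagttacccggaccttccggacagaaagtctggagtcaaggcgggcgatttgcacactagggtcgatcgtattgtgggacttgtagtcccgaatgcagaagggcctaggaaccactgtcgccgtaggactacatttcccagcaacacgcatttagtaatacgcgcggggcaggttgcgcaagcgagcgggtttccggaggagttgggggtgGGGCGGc
G6pdx: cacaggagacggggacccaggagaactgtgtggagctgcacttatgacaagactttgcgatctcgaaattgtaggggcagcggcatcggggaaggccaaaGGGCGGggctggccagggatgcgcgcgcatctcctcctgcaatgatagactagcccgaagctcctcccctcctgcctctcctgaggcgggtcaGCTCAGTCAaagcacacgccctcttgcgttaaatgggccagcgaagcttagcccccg
In the Tkt window 3 GC boxes lay within the last 25 bases, of which 2 overlapped by a base, and the Pgd window held 2 CCAAT boxes, starting 46 and 9 bases before the gene, with 1 GC box. The Rpia window held 1 GC box, and the G6pdx window held 1 GC box and 1 match to the antioxidant response element. All 9 members matched the RefSeq promoter table. GGGCGG occurred in the windows of 8 of the 9 members, against 32.7% of the 32851 windows in the table, and CCAAT in 4 of 9, against 33.8%. TGACNNNGC occurred in 1 of 9 (10.2% of all windows) and TGACG, the half-site bound by CREB, which can overlap it, in 2 of 9, namely Rpe and Taldo1 (17.8%). The sterol response element TCACNCCAC (1.05%) and the E-box CACGTG (6.02%) had no match in the 9 windows. The start used for H6pd lay 5787 bases inside the annotated gene edge. Pgd and Idh1 each had 2 windows in the table, of which 1 was used. These are matches of letters only, and the windows of the table were not restricted to expressed genes or matched for base content.

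TPM is scaled to gene length, so levels can be compared between genes within a sample. Idh1 was the most abundant member, at a mean of 486 TPM over the 12 mice, followed by H6pd at 275, Taldo1 at 141, Tkt at 91.6 and Pgd at 59.2 TPM. Pgls and Rpe followed at 29.1 and 29.0 TPM and could not be ordered, since Pgls was higher in 6 of 12 mice. G6pdx, the entry enzyme, stood at 15.5 TPM and Rpia was lowest at 4.81 TPM. Every other step of this order held in 12 of 12 mice, except that Pgd exceeded Pgls in 11 of 12. H6pd, which carries out the first 2 oxidative reactions in the endoplasmic reticulum, was therefore far more abundant by TPM than its cytosolic counterpart G6pdx, at 13.3 to 22.7 times the G6pdx level in control mice. This ratio shares the uncertainty of the G6pdx level that is described below.

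**Figure D1:**
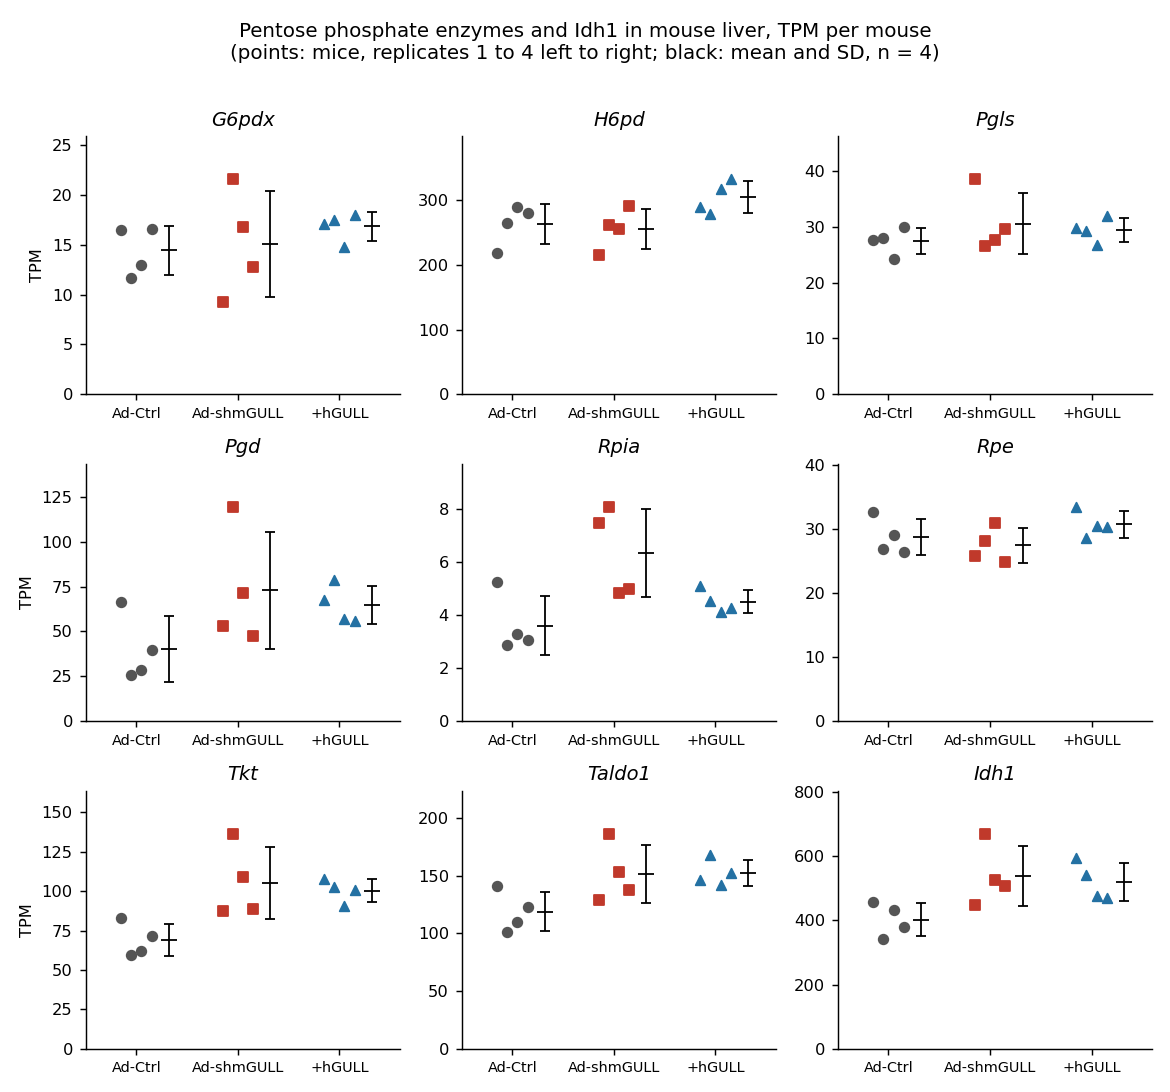
TPM of each member (vertical axes from 0) in each of the 4 mice of a group (+hGULL stands for Ad-shmGULL+hGULL), and the mean and SD in black. The Tkt values of all 4 Ad-shmGULL mice (87.4 to 136 TPM) lie above all Ad-Ctrl values (59.8 to 82.7 TPM), whereas the G6pdx and H6pd groups overlap.

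After knockdown of mGULL, transcripts of Tkt, Pgd and Rpia rose past the threshold and no member was past it as lower. A member counted as past the threshold when limma on log2(TPM + 1) gave a P under 0.05 before adjustment and a log2 change larger than 0.5 in either direction. Those 3 of 9 members compare with 7.65% of all tested features past this threshold in either direction and 5.35% past it as higher. At a Benjamini-Hochberg adjusted p under 0.05, 1 of 9 members (Tkt) passed, against 3.23% of all features, and 1 of 9 had groups that did not overlap, against 8.99%. The median log2 fold change of the members was 0.34 and that of all tested features was 0.09. When the libraries were rescaled by the median of ratios, which sets the median change near 0, Pgd (0.75) and Rpia (0.59) were still past the threshold, and Tkt, at 0.49, fell just short of the fold limit with a limma adjusted p of 0.0269. That rescaling moved the share of higher calls among all features past the threshold from 69.9% to 53.3%.

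In the cytosolic oxidative branch, G6pdx, glucose-6-phosphate dehydrogenase, which makes the first NADPH and sets entry into the pathway, showed no detectable change. It was at 16.5, 11.7, 13.0 and 16.6 TPM in the Ad-Ctrl mice, at 9.26, 21.6, 16.8 and 12.8 TPM in the Ad-shmGULL mice and at 17.1, 17.5, 14.8 and 18.0 TPM in the Ad-shmGULL+hGULL mice. The knockdown group held both the lowest and the highest G6pdx value of the 12 mice and enclosed all the control values. The log2 fold change was 0.02 with a 95% confidence interval of -0.42 to 0.46 (limma, adjusted p = 0.979), and it was -0.08 after the median-of-ratios rescaling. A change as large as that of Tkt lay outside this interval, but a smaller one in either direction could not be detected. G6pd2, an intronless copy of the gene, was listed at 0 in 11 of 12 samples and at 0.0564 TPM in the other, and how reads shared between the copies were counted was not given in the sources used here, so the G6pdx level is uncertain to that extent.

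Pgls, 6-phosphogluconolactonase, which hydrolyses the product of G6pdx, ranged from 24.2 to 30.0 TPM in Ad-Ctrl, 26.6 to 38.5 in Ad-shmGULL and 26.7 to 31.9 in Ad-shmGULL+hGULL mice. These groups overlapped, and the log2 fold change after knockdown was 0.14 ± 0.11 (SE; limma, adjusted p = 0.536).

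Pgd, 6-phosphogluconate dehydrogenase, which makes the second NADPH and ribulose 5-phosphate, varied most over the 12 mice. It was at 66.5, 26.0, 28.7 and 39.7 TPM in Ad-Ctrl mice, at 53.1, 119, 71.3 and 47.8 TPM in Ad-shmGULL mice and at 67.3, 78.5, 56.7 and 56.1 TPM in Ad-shmGULL+hGULL mice. Control replicate 1 stood well above the other 3 controls and within the range of the other groups, while knockdown replicate 2 was the highest of all 12 mice. The group means were 40.2 ± 18.5, 72.9 ± 32.6 and 64.6 ± 10.6 TPM (SD, n = 4 each). Pgd rose by 0.85 ± 0.30 (log2, SE) after knockdown by the study's threshold, but with a limma adjusted p of 0.138 and an exact permutation p of 0.114. Without control replicate 1 the change was 1.12 (adjusted p = 0.0369), and without knockdown replicate 2 it was 0.58 (adjusted p = 0.306), no longer past the threshold.

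H6pd, the hexose-6-phosphate dehydrogenase of the endoplasmic reticulum, which supplies NADPH to steroid-activating enzymes there, was at 219, 265, 290 and 280 TPM in Ad-Ctrl mice, at 216, 262, 255 and 291 TPM in Ad-shmGULL mice and at 290, 279, 317 and 332 TPM in Ad-shmGULL+hGULL mice. Control and knockdown mice spanned nearly the same range, and 2 of the rescue mice were above every other mouse. The log2 fold change after knockdown was -0.04 (95% confidence interval -0.28 to 0.20; limma, adjusted p = 0.880). A change as large as that of Tkt or Pgd lay outside this interval.

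In the non-oxidative branch, Tkt, transketolase, which moves 2-carbon units between sugar phosphates, gave the clearest difference. It was at 82.7, 59.8, 62.2 and 71.6 TPM in Ad-Ctrl mice, at 87.4, 136, 109 and 88.4 TPM in Ad-shmGULL mice and at 108, 102, 90.6 and 101 TPM in Ad-shmGULL+hGULL mice. Every knockdown and every rescue mouse was above every control mouse. Tkt rose by 0.59 ± 0.14 (log2, SE; limma, adjusted p = 0.0445) after knockdown, with an exact permutation p of 0.0286, the smallest that 4 mice against 4 allow. The adjusted p was under 0.05 in 3 of the 12 fits that left out a mouse, those without control replicate 1, knockdown replicate 1 or knockdown replicate 4, and over all alternatives it ranged from 0.0246 to 0.141. Without knockdown replicate 2 the change was 0.46.

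Taldo1, transaldolase, the partner of transketolase, was at 141, 102, 110 and 123 TPM in Ad-Ctrl mice, at 129, 186, 153 and 137 TPM in Ad-shmGULL mice and at 147, 168, 142 and 152 TPM in Ad-shmGULL+hGULL mice. Control replicate 1 lay above 2 of the knockdown mice, and all rescue mice lay above all controls. The log2 difference after knockdown, 0.34 ± 0.12, was below the fold limit (limma, adjusted p = 0.140). The ratio of Tkt to Taldo1, looked at after the values were seen, was 0.565 to 0.589 in the control mice, 0.643 to 0.732 in the knockdown mice and 0.610 to 0.735 in the rescue mice, so both groups with the shRNA lay above the controls.

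Rpia, ribose-5-phosphate isomerase, which makes ribose 5-phosphate, was the least abundant member. It was at 5.22, 2.87, 3.28 and 3.05 TPM in Ad-Ctrl mice, at 7.45, 8.07, 4.83 and 5.00 TPM in Ad-shmGULL mice and at 5.10, 4.54, 4.11 and 4.25 TPM in Ad-shmGULL+hGULL mice. Control replicate 1 exceeded 2 knockdown mice, and without it the groups did not overlap. Rpia rose by 0.67 ± 0.18 (log2, SE; limma, adjusted p = 0.0656) after knockdown, and by 0.82 (adjusted p = 0.0216) without control replicate 1. Because a pseudocount of 1 was added, the change of so low a transcript is understated on this scale.

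Rpe, ribulose-phosphate 3-epimerase, which makes xylulose 5-phosphate from the same substrate as Rpia, ranged from 26.4 to 32.7 TPM in Ad-Ctrl, from 24.9 to 31.0 TPM in Ad-shmGULL and from 28.6 to 33.5 TPM in Ad-shmGULL+hGULL mice. The groups overlapped and the log2 fold change after knockdown was -0.06 (95% confidence interval -0.27 to 0.14; limma, adjusted p = 0.754). A change as large as that of Rpia lay outside this interval.

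Idh1, cytosolic isocitrate dehydrogenase, was at 456, 342, 432 and 380 TPM in Ad-Ctrl mice, at 446, 669, 527 and 508 TPM in Ad-shmGULL mice and at 593, 541, 474 and 468 TPM in Ad-shmGULL+hGULL mice. Control replicate 1 exceeded knockdown replicate 1, the only overlap between these groups. The log2 difference after knockdown was 0.41 ± 0.13 (limma, adjusted p = 0.107), below the fold limit.

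The number of members past the threshold after knockdown ranged from 1 to 3 when a mouse was left out. It was 1 (Rpia) without knockdown replicate 2, which had the highest value of all 12 mice for 6 of the 9 members, and 2 without control replicate 2, which had the lowest control value for 6. Without control replicate 1, the highest control for 6 members, 3 members had an adjusted p under 0.05. For the fits without a mouse, here and below, the share of all features is not given, so these member counts have no background.

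**Figure D2:**
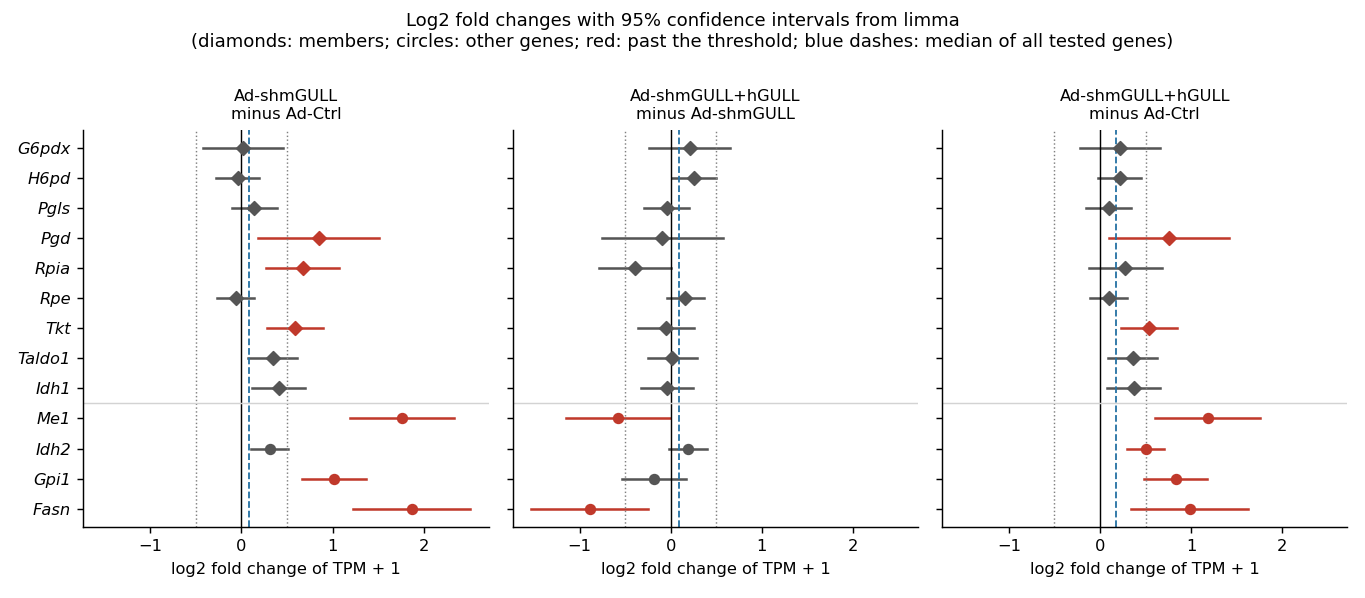
Log2 fold changes on the TPM + 1 scale (horizontal axes) with 95% confidence intervals for the 9 members and 4 other genes in the 3 comparisons, with the median of all tested features as a dashed line and the fold limit of 0.5 as dotted lines. Pgd, Rpia and Tkt are past the threshold after knockdown (0.85, 0.67 and 0.59), and no member is past it between rescue and knockdown.

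Concurrent expression of hGULL changed no member past the threshold against knockdown alone. The 0 of 9 members compares with 3% of all tested features past the threshold in either direction, 0% at an adjusted p under 0.05 by limma, and 6.38% without overlap, of which the members also had 0. Of all features, 1757 had an unadjusted p under 0.05 in this comparison, and of the members only H6pd did, at 0.26 above knockdown (95% confidence interval 0.02 to 0.50; limma, adjusted p = 0.444). Rpia had the lowest log2 difference, -0.39 with an interval of -0.79 to 0.01 (limma, adjusted p = 0.467). For Tkt the difference was -0.05 (-0.35 to 0.26), for Idh1 -0.04 (-0.33 to 0.25), for Taldo1 0.02 (-0.25 to 0.29) and for Pgd -0.09 (-0.75 to 0.57). Set against the knockdown estimates, whose own error is not counted here, a return to the control mean would be a fall of 0.59 for Tkt and of 0.85 for Pgd, both outside these intervals, and a fall of 0.67 for Rpia, inside its interval.

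The comparison of rescue with control shares its rescue mice with the one and its control mice with the other of the comparisons above. Here 2 of 9 members, Tkt and Pgd, were past the threshold, both higher, against 7.49% of all features in either direction and 6.84% as higher. At an adjusted p under 0.05 there were 0 of 9, against 2.15%. At an unadjusted p under 0.05 there were 4 of 9, against 4149 of the 16378 features tested. Groups did not overlap for 3 members (Tkt, Taldo1 and Idh1), against 22.3% of all features, the median of which was 0.17 above control. Tkt rose by 0.54 ± 0.14 (log2, SE; limma, adjusted p = 0.0613) and Pgd by 0.76 ± 0.30 (adjusted p = 0.153). The log2 differences were 0.37 for Idh1 (adjusted p = 0.123), 0.36 for Taldo1, 0.28 for Rpia, 0.22 for G6pdx and 0.21 for H6pd. After the median-of-ratios rescaling, 0 members were past the threshold, with Tkt at 0.34 and Pgd at 0.56 (limma, adjusted p = 0.376), and the share of higher calls among all features went from 91.4% to 67.2%. The count was also 0 without control replicate 2 or without control replicate 3, and 1 (Tkt) without rescue replicate 1 or rescue replicate 2. The list of 5 proliferation markers, of which 4 rose past the threshold in the same comparison, summed to 26.5 to 61.5 TPM in control and 53.6 to 89.6 TPM in rescue mice, and its part was not tested.

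Within the members, a subset varied together from mouse to mouse, as did features outside the pathway that are named below. The 20 most abundant features held 29.4% of the TPM in control replicate 1 and 32.9% in control replicate 2. They held 34.2% in knockdown replicate 1 and 26.3% in knockdown replicate 2. The part of such differences in library composition in the r values was not tested. Over the 12 mice, Pearson's r of log2(TPM + 1) was 0.97 for Pgd with Taldo1, 0.96 for Tkt with Taldo1, 0.95 for Pgd with Tkt and 0.91 for Tkt with Idh1, and the points share their libraries and the scaling to a fixed total. After subtraction of the group means these values were 0.95, 0.93, 0.94 and 0.80. G6pdx, whose group means hardly differed, followed the same mice within groups, with r = 0.91 for Tkt and 0.89 for Taldo1, against 0.63 and 0.73 over all 12. Over all 12 mice, H6pd had r = -0.15 with Pgd and 0.05 with Tkt, and Pgls had 0.06 and 0.12. After subtraction of the group means these were -0.44 and -0.24 for H6pd, and -0.26 and -0.33 for Pgls. Neither therefore rose together with Pgd and Tkt. The ratio of Tkt to G6pdx, chosen for display after the values were seen, was 4.32 to 5.13 in control mice, 5.61 to 6.30 in rescue mice and 6.32 to 9.44 in knockdown mice. Rescue and knockdown mice nearly met, at 6.30 and 6.32, and the highest ratio was in knockdown replicate 1, the mouse lowest in G6pdx. Because the ratio was picked from these values, its separation is a description only and was not tested. The ratio of Pgd to G6pdx was 2.22 to 4.02, 3.12 to 4.47 and 3.73 to 5.74 in the same order and overlapped.

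**Figure D3:**
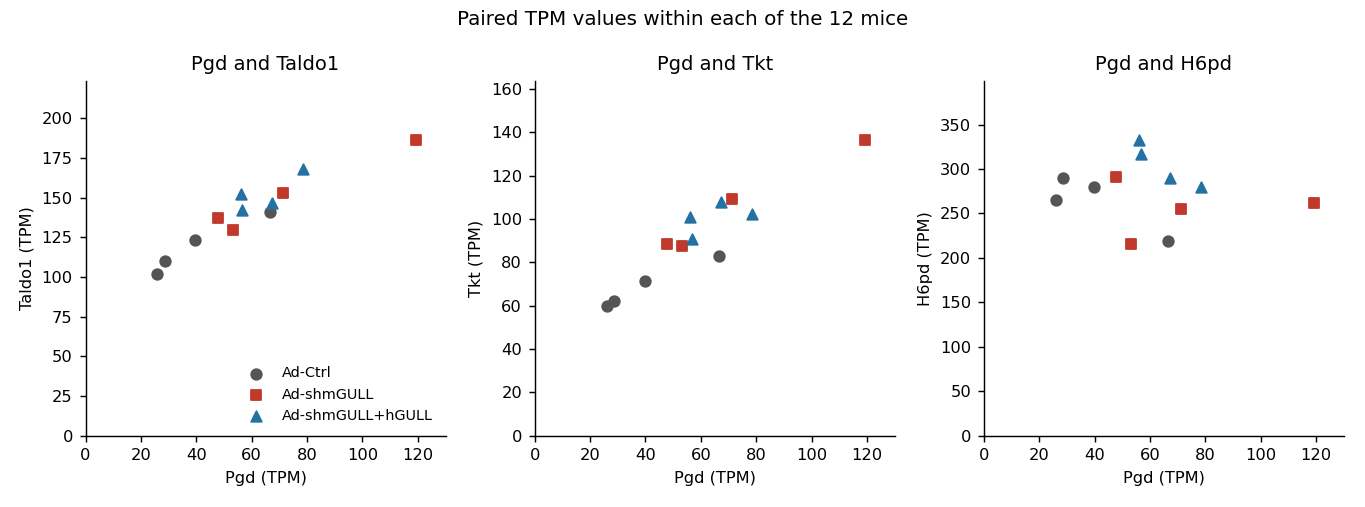
TPM of Pgd (horizontal axes) against Taldo1, Tkt and H6pd (vertical axes), with each point a mouse and each symbol a group. Taldo1 and Tkt increase with Pgd across the 12 mice, with knockdown replicate 2 at the upper end (119 TPM of Pgd), and H6pd does not.

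The features most like each member over the 12 samples, by the same r, are named as a description, up to 3 for each. For Pgd they were Ywhab (0.97), Taldo1 and Abi2, for Taldo1 they were Gbe1 (0.97), Aldh1a7 and Pgd, and for Tkt they were Fam126a (0.98), Ywhab and a feature whose symbol was deposited as the date 9-Sep. For Idh1 they were Tmem135 (0.96), Cxadr and Tbc1d31, and for Rpia Gm38230 (0.96), Tm4sf1 and Crtap. For G6pdx they were Dnajc8 (0.98), Tmod3 and Ubxn4, for H6pd Il6st (0.93), Lcat and Erbb3, for Pgls Exosc5 (0.96) and Lrrc47, and for Rpe Rps16-ps2 (0.90), Gm43294 and Esyt2. Members were among the closest features of other members only for Pgd and Taldo1, each of which named the other.

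Among the other NADPH sources, Me1, cytosolic malic enzyme, which makes NADPH from malate during lipogenesis, rose most after knockdown. It was at 298, 169, 193 and 173 TPM in Ad-Ctrl mice, at 613, 1123, 574 and 565 TPM in Ad-shmGULL mice and at 620, 540, 316 and 425 TPM in Ad-shmGULL+hGULL mice. Every shRNA mouse was above every control, and knockdown replicate 2 and control replicate 1 were the highest of their groups, as they were for Pgd and Tkt. Me1 rose by 1.76 ± 0.26 (log2, SE; limma, adjusted p = 0.00822) after knockdown, was lower in rescue than in knockdown mice by the threshold (log2 difference -0.58 ± 0.26; adjusted p = 0.463), and was 1.18 above control in rescue mice (adjusted p = 0.0445). The call against knockdown was past the threshold in 9 of 19 alternatives, and without knockdown replicate 2 the difference was -0.34.

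Of the TPM summed over the cytosolic producers G6pdx, Pgd, Idh1 and Me1, the share of Me1 was 31.0% ± 3.29 in control, 52.7% ± 4.51 in knockdown and 43.6% ± 4.87 in rescue mice (SD, n = 4 each). The Idh1 share was 61.0%, 40.9% and 48.8%, and the G6pdx and Pgd share was 8.07%, 6.40% and 7.65%. Thus Idh1 was the most abundant of these 4 in every control mouse, and Me1 was the most abundant of them in every knockdown mouse. The pentose phosphate dehydrogenases held a small share of this sum in all groups. These are transcript shares and were not tested, and they depend on the 4 genes chosen. Aldh1l1, also in the list of other NADPH sources, was not in the sum and is added after its values were seen. Its means were 737, 712 and 667 TPM in control, knockdown and rescue mice. Those of Idh1 were 402, 537 and 519 TPM, and those of Me1 were 208, 719 and 475 TPM. Of the 8 tested genes in the list of other NADPH sources, 2 rose past the threshold after knockdown, Me1 and Mthfd1l (log2 0.96, limma, adjusted p = 0.0604). Mthfd1l encodes the mitochondrial formate-tetrahydrofolate ligase, which feeds the folate route rather than making NADPH itself. By the same threshold, 1 gene of the list was lower in rescue than in knockdown (Me1). In rescue against control, 3 were higher (Me1, Mthfd1l and Idh2). Idh2, the mitochondrial isocitrate dehydrogenase, rose from 110 ± 15.8 TPM in control to 155 ± 5.90 TPM in rescue mice (log2 0.50; limma, adjusted p = 0.0388), with 135 ± 9.64 TPM in knockdown mice. This change lay on the fold limit: it was past the threshold in 15 of 19 alternatives, and was 0.30 after the median-of-ratios rescaling, 0.46 without control replicate 2, 0.44 without control replicate 3 and 0.48 without rescue replicate 1. Nnt, the mitochondrial transhydrogenase, and Mthfd1, the cytosolic trifunctional folate enzyme, were added after their values were seen. Nnt was at 1.74 to 1.99 TPM in control, 1.15 to 1.62 TPM in knockdown and 1.57 to 2.15 TPM in rescue mice. All knockdown mice lay below all controls for Nnt, and 8.99% of all tested features had groups without overlap in this comparison. The log2 difference of Nnt, -0.29 ± 0.13, was below the fold limit (limma, adjusted p = 0.229). At so low a level the pseudocount of 1 makes this difference smaller. Transcript levels do not show whether a functional Nnt enzyme was present in these mice. Mthfd1 was at 128 to 161 TPM over all mice.

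**Figure D4:**
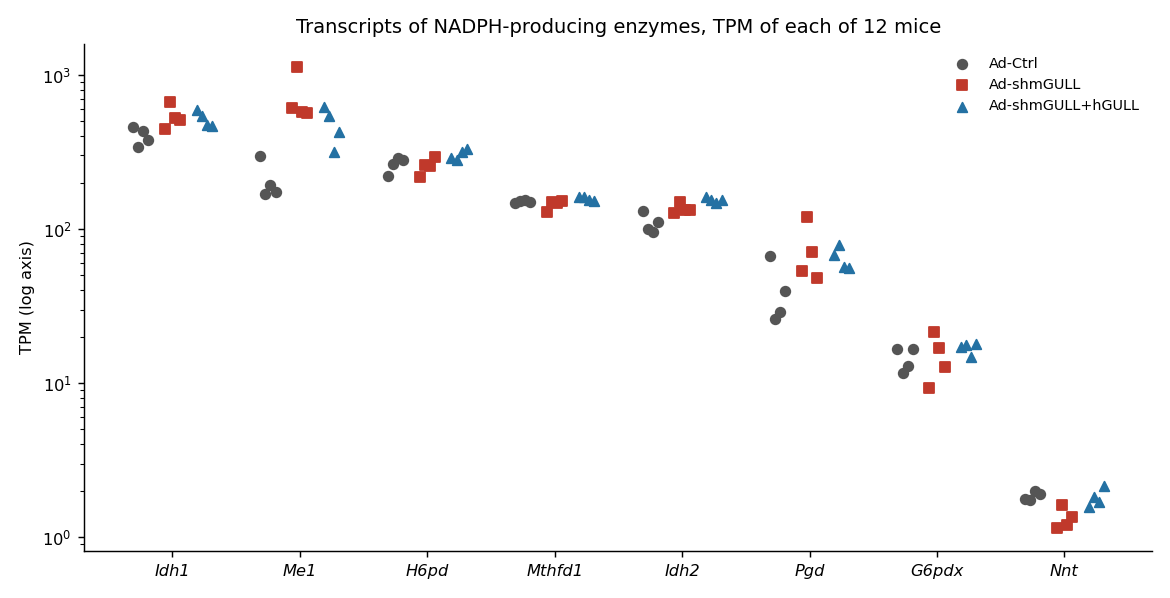
TPM of 8 NADPH-producing enzymes (log axis) in each mouse, with circles for the control, squares for the knockdown and triangles for the rescue group. Me1 of all 4 knockdown mice (565 to 1123 TPM) lies above the control mice (169 to 298 TPM), whereas G6pdx and Mthfd1 lie in overlapping ranges.

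At the entry to the pathway, Gpi1, glucose-6-phosphate isomerase, which converts glucose 6-phosphate to fructose 6-phosphate and so competes with G6pdx, rose from 89.4 ± 14.7 TPM in control to 184 ± 44.4 TPM in knockdown mice (log2 1.02 ± 0.16; limma, adjusted p = 0.00995). G6pc, glucose-6-phosphatase, which removes the same substrate, rose from 505 ± 52.8 to 970 ± 151 TPM (log2 0.93 ± 0.12; limma, adjusted p = 0.00606). The rescue means were 159 ± 23.0 TPM for Gpi1 and 734 ± 70.2 TPM for G6pc, past the threshold against control but not against knockdown. For G6pc against control (log2 0.54), that call was lost after the median-of-ratios rescaling (0.34), without control replicate 3 (0.49) and without rescue replicate 2 (0.48). These were the only 2 of 9 tested genes of the list of NAD kinases and entry enzymes past the threshold. No gene of that list was past it as lower in any comparison.

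Among the other enzymes tied to the pathway, which recycle or activate pentoses, 0 of 10 tested genes were past the threshold in any of the 3 comparisons. The most abundant were Xylb, xylulokinase, Prpsap1, which associates with phosphoribosyl pyrophosphate synthetase, and Shpk, sedoheptulokinase, which phosphorylates a heptose of the non-oxidative branch. Shpk was at 52.0 to 57.7 TPM in control and 62.3 to 71.6 TPM in knockdown mice, without overlap, a log2 difference of 0.28 ± 0.07 that was below the fold limit (limma, adjusted p = 0.0470). The log2 differences after knockdown were 0.24 for Xylb (adjusted p = 0.163) and 0.33 for Prpsap1 (adjusted p = 0.0580).

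Among the NADPH users in lipid and sterol synthesis, Fasn, fatty acid synthase, rose after knockdown by 1.87 ± 0.30 (log2, SE; limma, adjusted p = 0.00995), from 136 ± 31.8 to 531 ± 260 TPM. In rescue mice Fasn was at 273 ± 81.3 TPM, past the threshold as lower than in knockdown (log2 -0.89; adjusted p = 0.389) and as higher than in control (0.98; adjusted p = 0.0845). The lipogenic reference genes Acly, Acaca, Acacb, Elovl6, Scd1, Thrsp and Pnpla3 were past the threshold as higher after knockdown in 7 of 7 cases, with a median log2 fold change of 1.41, but several of them are genes the study itself followed, so this count is not independent evidence of their direction. Of these, 3 were past the threshold as lower in rescue than in knockdown (log2 -0.72 for Acly, -0.77 for Elovl6 and -0.87 for Thrsp; limma, adjusted p = 0.404, 0.399 and 0.374) and 5 as higher in rescue than in control. Without knockdown replicate 2, Acly (-0.41) and Elovl6 (-0.44) were no longer past it, and Acly also lost it without rescue replicate 4. Each member's own knockdown value was smaller than this median, from -0.06 for Rpe to 0.85 for Pgd. Across the 12 mice, r with Fasn was 0.87 for Tkt, 0.83 for Pgd and for Rpia, 0.82 for Idh1 and 0.79 for Taldo1, and it was 0.31 for G6pdx, 0.14 for Pgls, -0.01 for Rpe and -0.22 for H6pd. These values include the differences between the groups. After subtraction of the group means, r was 0.77 for Tkt, 0.82 for Pgd, 0.53 for Rpia, 0.70 for Idh1 and 0.75 for Taldo1. By the same measure it was 0.63 for G6pdx, -0.42 for Pgls, 0.40 for Rpe and -0.42 for H6pd.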

How the data were processed

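RNA-Seq was analysed for 12 livers, grouped by their sample titles. Per the study's methods, the authors trimmed reads with fastp 0.23.2, checked them with FastQC 0.11.8, aligned them with HISAT2 2.2.1.0 to GRCm38.p6 and counted them on GENCODE genes from strand-specific libraries. The submitters' processing notes name featureCounts and Subread 2.0. The authors deposited TPM, which sum to 1000000 in every sample, so the depth is unknown and precision is given by the spread between mice. All 37 mitochondrially encoded features were listed at 0.

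Log2(TPM + 1) was fitted with limma 3.58.1 in R 4.3.3, with 3 groups in 1 model, no covariate and a mean-variance trend, for the 16378 features with a mean TPM of at least 1. P-values were adjusted by Benjamini-Hochberg over all of them. The threshold was that of the study, a P under 0.05 before adjustment and a log2 change larger than 0.5. Single members were also tested by an exact two-sided permutation test over 70 splits. Other gene lists and cell type marker lists were described by counts and ranges. The members and gene lists were chosen with earlier results of these data known. The text names all members, listed genes past the threshold in at least 1 comparison (or, in lists with none, the up to 3 with the highest mean TPM), and the 3 features most correlated with each member, apart from 2 genes that are not reported here. The procedure was tested on simulated data. Alternatives were a mean TPM of at least 5, no filter, a pseudocount of 0.1, median-of-ratios scaling, a replicate block, no trend, only the 2 groups compared, and leaving out each mouse. Whether mice were housed or processed together is not given in the sources used here, so p-values measure the spread between these samples. Promoters were taken from RefSeq tables (GRCm38.p6) with Python 3.11.15, and figures were drawn with matplotlib 3.10.9. The injection is called intravitreal or retro-orbital in different parts of the study's methods.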

Additional observations from a re-analysis of the deposited data

How the results depend on the processing

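The depth of each library was unknown, 4 mice per group limit the precision, and G6pdx, Pgls, Rpe and H6pd had intervals that hold small changes of either sign.

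Of the members' log2 fold changes, 299 of those without 1 mouse and 179 under the other alternatives kept their direction and their side of the threshold, 9 and 3 lost the threshold, and 16 and 4 changed sign, all of the latter among differences below the fold limit. After knockdown, the count of members at an adjusted p under 0.05 was 1, and it was 0 with no filter, with the replicate block, without the trend and with only the 2 groups compared. In rescue against control it was 0, and it was 1 with a mean TPM of at least 5 and with only the 2 groups compared. Rpia, with a mean of 4.81 TPM, was not tested at that filter. With median-of-ratios scaling, the members past the threshold in rescue against control went from 2 to 0 and the other listed genes from 14 to 9. The same scaling reversed G6pdx after knockdown (-0.083), Taldo1 (-0.080) and Cbr1 (-0.034) in rescue against knockdown, and Pgls (-0.099), Rpe (-0.10) and Gsr (-0.057) in rescue against control. It removed the shift of the median of all features, 0.09, 0.09 and 0.17 in the 3 comparisons.

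When a mouse was left out, members past the threshold ranged from 1 to 3 after knockdown, 0 to 0 in rescue against knockdown and 0 to 2 in rescue against control. Members at an adjusted p under 0.05 ranged from 0 to 3, 0 to 0 and 0 to 2, with the highest counts without control replicate 1. The share of all features in these fits is not given here. Other listed genes past the threshold ranged from 15 to 18, 4 to 7 and 11 to 18, with 11 without rescue replicate 2. Log2 fold changes that changed sign ranged from -0.17 to 0.21 for G6pdx and -0.13 to 0.037 for H6pd after knockdown. In rescue against knockdown they ranged from -0.11 to 0.30 for Cbr1, -0.13 to 0.069 for Idh1, -0.29 to 0.025 for Mthfd1l, -0.26 to 0.18 for Pgd, -0.10 to 0.069 for Pgls, -0.053 to 0.12 for Taldo1 and -0.13 to 0.084 for Tkt.

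Of the 12 pairs of same-numbered mice, 2 had a correlation of deviations over 0.1, with a range of -0.24 to 0.15 over all pairs. Pairs with different numbers were not compared, so these values cannot show whether same-numbered mice shared housing or processing. With the number as a replicate block, 3 members stayed past the threshold after knockdown and 2 in rescue against control, and the adjusted p of Tkt after knockdown was 0.0784.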

Other observations

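Among NADPH users in redox defence and detoxification, 0 of 11 tested genes were past the threshold after knockdown. Gsr, glutathione reductase, which uses NADPH to recycle glutathione, was at 138 ± 28.6 TPM in control, 104 ± 28.6 TPM in knockdown and 150 ± 5.37 TPM in rescue mice (SD, n = 4 each), and was past the threshold as higher in rescue than in knockdown (log2 0.56; limma, adjusted p = 0.388). That call was lost without knockdown replicate 1 (0.39), without knockdown replicate 4 (just under the fold limit) and after the median-of-ratios rescaling (0.46). Cbr1, a carbonyl reductase that uses NADPH, was past it as higher in rescue than in control (log2 0.75; limma, adjusted p = 0.190), from 160 ± 79.0 to 251 ± 64.7 TPM. It stayed past the threshold in 7 of 19 alternatives, and without control replicate 2 the value was 0.498 (adjusted p = 0.459). The call was also lost without control replicate 3, knockdown replicate 1 or 3, or rescue replicate 1, 2 or 4.

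Of 8 tested transcription factors tied to lipogenic or antioxidant gene control, 2 rose past the threshold after knockdown and 2 in rescue against control. Srebf1, the sterol-regulated activator of lipogenic genes, rose from 96.5 ± 15.7 to 159 ± 16.8 TPM after knockdown (log2 0.72; limma, adjusted p = 0.0373), with 135 ± 28.9 TPM in rescue mice. Nfe2l2, which encodes the antioxidant regulator NRF2, rose by 0.54 after knockdown (adjusted p = 0.0715; 0.41, no longer past the threshold, without knockdown replicate 2, and likewise lost without control replicate 2 or 4 or after the median-of-ratios rescaling) and by 0.70 in rescue against control (adjusted p = 0.0432). Mlxipl, which encodes the carbohydrate-responsive factor ChREBP, rose by 0.53 in rescue against control (adjusted p = 0.0441), and the median-of-ratios rescaling ended that call (0.33) and that of Nfe2l2 (0.50) in the same comparison. After subtraction of the group means, r of Srebf1 over the 12 mice was -0.19 with Tkt and 0.01 with Pgd, against 0.56 and 0.51 without that subtraction. For Nfe2l2 these values were 0.55 and 0.48, against 0.83 and 0.72. For Mlxipl they were -0.003 and -0.06, against 0.66 and 0.50. All are given as a description of points that share their libraries, and the part of these factors was not tested.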
